A study of Mus musculus with 4 samples.

Results

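Ephrins, semaphorins, netrins, Slits and their receptors form a group of 67 genes on the array, measured by 150 probe sets, out of 18193 genes and 45101 probe sets in all. The members were picked out of the array by gene symbol. They are the Eph receptors, ephrins, semaphorins, plexins, Slits, Robo receptors and netrins, together with the neuropilins Nrp1 and Nrp2 and the netrin receptors Dcc, Unc5b and Unc5c. The group itself was chosen with earlier results of these data known. One transcript from the strand opposite Plxna4 (Plxna4os1) also has a matching symbol and was kept. Of the 67 genes, 22 had 1 probe set and 45 had more than 1.

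Basal interfollicular cells were sorted from mouse tail epidermis as integrin alpha 6-positive and CD34-negative cells, and their RNA was hybridised to Affymetrix 3' expression arrays. All animals carried K14CreER, a tamoxifen-dependent Cre recombinase driven by the keratin 14 promoter of basal keratinocytes, and SmoM2, a constitutively active Smoothened that switches on Hedgehog signalling. The SmoM2 group (2 arrays) kept Sox9, and the Sox9cKO group (2 arrays) had Sox9 conditionally deleted in the same cells. Tamoxifen was injected at 2.5 mg a day for 10 days, and cells were taken 9 weeks after the first dose. Neither the number of animals per array nor their age is in the labels. The p-values therefore measure the spread between these samples, and the number of arrays limits their precision. The comparison asked which genes depend on Sox9 in cells that express the oncogene.

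Guidance molecules were first described in growing axons and also act between epithelial cells. Ephrins are ligands tethered to the cell surface that bind Eph receptor tyrosine kinases on a neighbouring cell, and both sides can signal. Semaphorins act through plexins, and most secreted class 3 semaphorins need a neuropilin as co-receptor. Netrins are laminin-related secreted proteins recognised by Dcc, neogenin and Unc5 receptors, and Slits are secreted ligands of Robo receptors.

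The deleted gene fell at its most responsive probe set, where Sox9 measured 10.21 and 10.02 on the log2 scale in the SmoM2 pair and 6.75 and 5.70 in the Sox9cKO pair. The other Sox9 probe sets changed by -0.75 and -0.41 and did not pass the test. The brightest of them stands for Sox9 in the gene-level fit used below for the members, and did not pass there either (adjusted p = 0.108 by limma). It still measured 8.06 and 8.48 in the Sox9cKO pair. The labels do not place these probes inside or outside the deleted part. The basal keratins Krt5 and Krt14 lay between 13.15 and 13.76 on all arrays and Cd34 between 3.75 and 4.15, below the lower quartile of all genes (4.61 to 4.68 per array). Cd34 was the 1 of 7 bulge markers with a mean below that quartile, and Lhx2 lay between 10.47 and 11.43. None of 7 suprabasal markers was below it, and Krt10 lay between 12.9 and 13.7. These levels therefore do not show that the sorted cells were free of follicular or suprabasal transcripts. The Y-linked genes Eif2s3y, Kdm5d and Uty measured 3.23 to 3.62 on the 2 arrays where they were low, which gives the level of a probe set without its transcript. Each group held 1 such array, SmoM2 replicate 1 and Sox9cKO replicate 2. On the other 2 arrays Eif2s3y measured 9.48 (SmoM2 replicate 2) and 9.03 (Sox9cKO replicate 1). Each group thus held 1 array with RNA of male cells and 1 without, and arrays of the same replicate number differed in these genes.

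Sequences upstream of members with large changes are shown first, because the groups differ in a SOX factor and share an active Hedgehog pathway. RefSeq promoter windows (250 bases before to 50 after the start, build GRCm38.p6) were at hand for 57 of the 67 genes and for 12 of the 13 that passed the test described below. No window was at hand for Ntn1, which had the largest change of all members. The 4 windows below belong to the 4 of these 12 genes with the largest log2 change. Capitals mark the SOX core motif ACAAT or the GLI core motif CCACCCA, each searched on both strands, so that a match on the other strand appears as its reverse complement.
Sema3g, chr14:31217623-31217922, plus strand: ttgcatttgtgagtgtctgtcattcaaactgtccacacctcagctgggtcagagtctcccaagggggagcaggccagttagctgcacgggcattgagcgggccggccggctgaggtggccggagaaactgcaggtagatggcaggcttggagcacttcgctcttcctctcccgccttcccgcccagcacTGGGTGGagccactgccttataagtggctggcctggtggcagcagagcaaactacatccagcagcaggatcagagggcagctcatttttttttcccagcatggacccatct
Sema3e, chr5:14025026-14025325, plus strand: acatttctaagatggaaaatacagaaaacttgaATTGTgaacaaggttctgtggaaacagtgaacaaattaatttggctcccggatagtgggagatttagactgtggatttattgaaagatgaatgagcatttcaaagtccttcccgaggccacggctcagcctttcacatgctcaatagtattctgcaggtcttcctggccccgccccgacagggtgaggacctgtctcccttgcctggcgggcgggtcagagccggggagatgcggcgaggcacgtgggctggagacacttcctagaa
Nrp2, chr1:62703067-62703366, plus strand: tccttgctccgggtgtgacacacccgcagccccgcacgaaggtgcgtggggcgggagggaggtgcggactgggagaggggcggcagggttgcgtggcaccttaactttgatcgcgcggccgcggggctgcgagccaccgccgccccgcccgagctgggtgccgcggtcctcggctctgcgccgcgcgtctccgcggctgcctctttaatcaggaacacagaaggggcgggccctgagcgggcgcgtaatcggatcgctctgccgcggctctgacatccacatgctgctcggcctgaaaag
Efna5, chr17:62881268-62881567, minus strand: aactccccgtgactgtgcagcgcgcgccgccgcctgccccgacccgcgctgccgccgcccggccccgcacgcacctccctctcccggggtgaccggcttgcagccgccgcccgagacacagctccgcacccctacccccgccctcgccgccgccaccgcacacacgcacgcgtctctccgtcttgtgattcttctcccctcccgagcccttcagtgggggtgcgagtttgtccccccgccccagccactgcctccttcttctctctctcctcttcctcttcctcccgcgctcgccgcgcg

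The Sema3g window held 1 GLI core match, at position -61 from the start, and the Sema3e window held 1 SOX core match, at position -217. The windows of Nrp2 and Efna5 held neither motif, which says only that these letters do not occur there. Short motifs are common. The SOX core occurred in 31% of all 32851 RefSeq windows of this length and in 14 of 73 windows of the members (19.2%), and the GLI core in 9.3% of all and in 7 of 73 (9.59%). Of the other genes that passed the test, Plxna2 and Sema3c held 1 GLI core match each, and Sema4g, Ntn4 and 1 of 2 windows of Efna3 held 1 SOX core match each. In all, 4 of 14 windows of genes that passed held the SOX core (28.6%) and 3 of 14 the GLI core (21.4%). These few windows were not tested against the shares of all windows. No window of a gene that passed held both motifs, so no matches overlapped. A match is a description of the sequence, and binding was not measured here.

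Guidance genes moved in both directions between SmoM2 and Sox9cKO cells. With each gene read at its brightest probe set (by mean signal), 8 of 67 members rose (Ntn1, Sema3g, Nrp2, Efna5, Plxna2, Robo1, Sema4g and Epha1) and 5 fell (Sema3e, Sema3c, Efna1, Efna3 and Ntn4) at an adjusted p under 0.05 by limma, with Benjamini-Hochberg adjustment over all 18193 genes. That is 19.4% of the members, beside 6.19% of all genes tested (2.66% higher and 3.53% lower). The median log2 change of the members, Sox9cKO minus SmoM2, was -0.02, beside 0.02 for all genes. By a count with no test, 8 members (6 higher and 2 lower) had means at least 2-fold apart with arrays of the genotypes not overlapping, as did 4.16% of all genes (1.75% higher and 2.41% lower). Non-overlap alone is common, at 39 of the 67 members and 8706 of all 18193 genes.

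These calls differ in how much they rest on 1 array. Ntn1, Nrp2, Plxna2 and Efna5 passed under all 12 alternative settings, and Sema3g under all 11 in which it was tested. With any 1 array left out fewer members passed, and a smaller share of all genes passed as well. With SmoM2 replicate 1 or 2 left out, the members called lower lost most or all of their calls. An exact permutation test of 2 arrays against 2 cannot go below p = 0.333, so each call depends on the variance estimate that limma pools over genes.

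**Figure D1:**
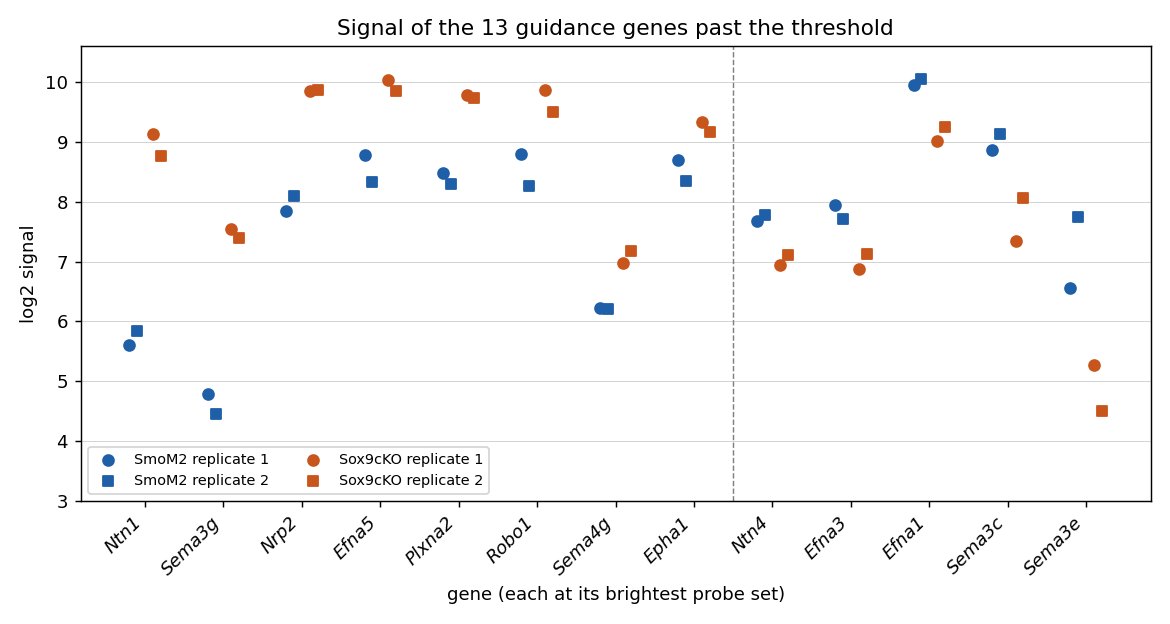
The log2 signal (vertical axis) of the 13 guidance genes that passed the test, with 1 point per array: SmoM2 in blue, Sox9cKO in orange, circles for replicate 1 and squares for replicate 2. To the left of the dashed line both Sox9cKO arrays lie above both SmoM2 arrays, as for Ntn1 (9.12 and 8.76 against 5.61 and 5.84), and to the right both lie below.

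**Figure D2:**
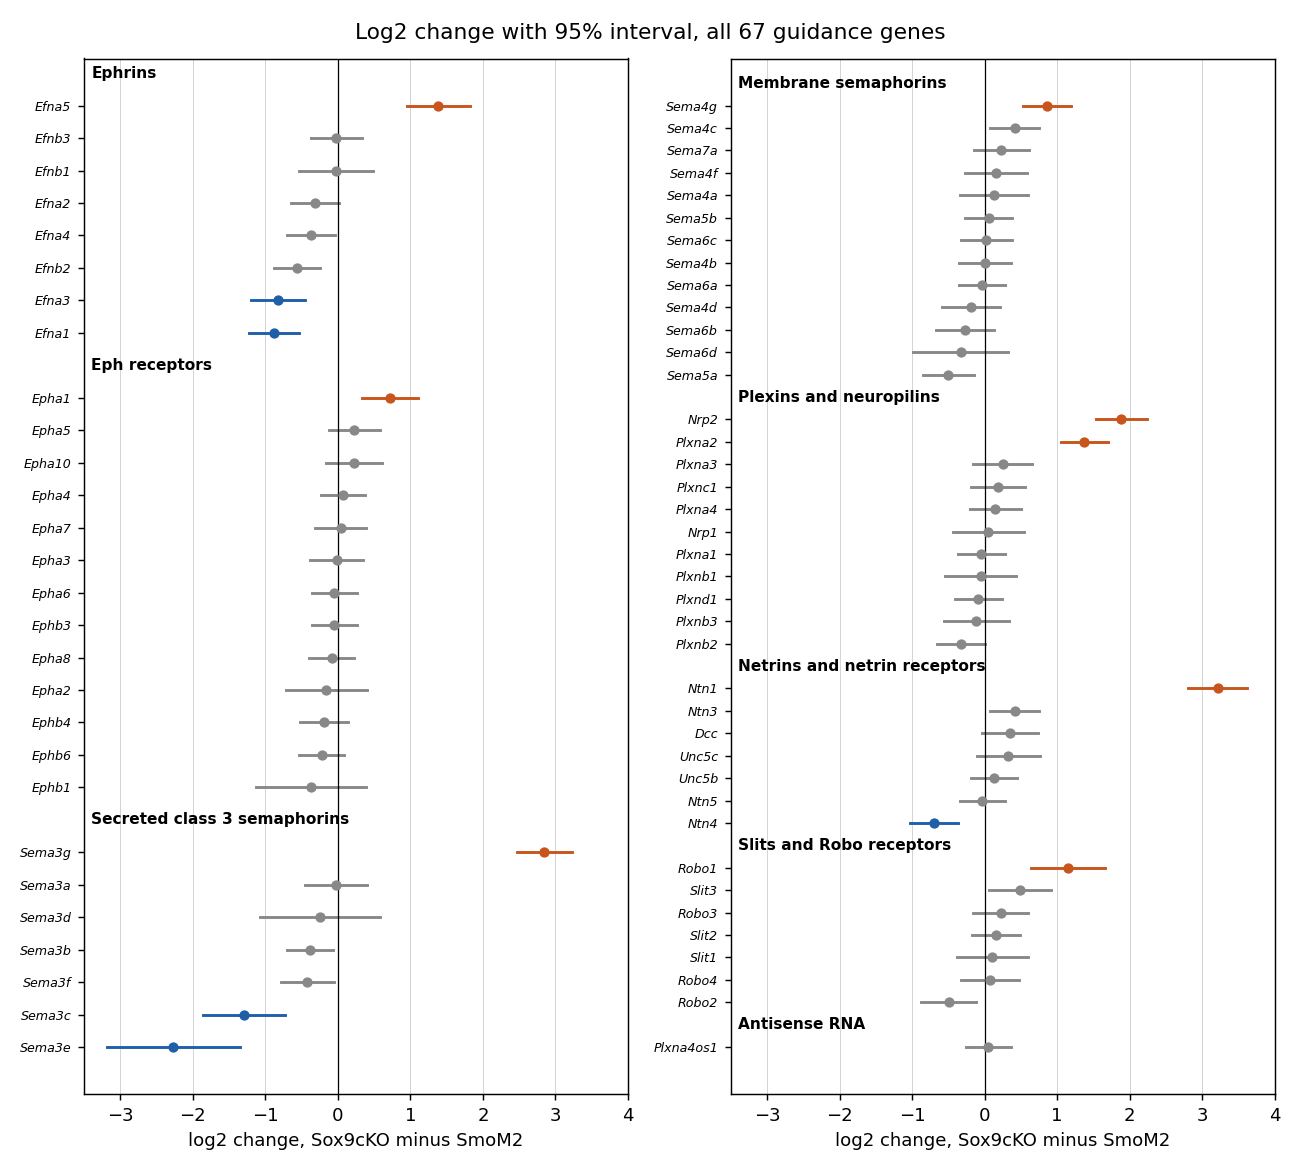
The log2 change, Sox9cKO minus SmoM2 (horizontal axis), of all 67 guidance genes with its 95% interval from limma, grouped by role. Orange marks genes that rose, blue genes that fell and grey genes that did not pass; the changes run from 3.22 for Ntn1 to -2.27 for Sema3e.

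Secreted semaphorins moved in both directions. Of 7 class 3 semaphorins 1 rose and 2 fell (42.9%, beside 6.19% of all genes). Sema3g, a ligand that signals mainly through neuropilin-2, measured 4.79 and 4.46 in the SmoM2 pair and 7.55 and 7.40 in the Sox9cKO pair. Its log2 change was 2.85 (SE 0.16, adjusted p = 0.000294), a 7.19-fold difference that ranked 22 among all genes by p. The SmoM2 values lay near the lower quartile of all genes, so the size of the fold is less exact than its direction. Sema3g had 1 probe set.

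Sema3e, which binds plexin D1 without a neuropilin, went the other way. Its signal was 6.56 and 7.74 in the SmoM2 pair and 5.26 and 4.50 in the Sox9cKO pair. The genotypes did not overlap, but the replicates lay over 1 log2 unit apart in SmoM2. The mean changed from 7.15 ± 0.83 to 4.88 ± 0.54 (SD, n = 2 each), a log2 change of -2.27 (SE 0.39, adjusted p = 0.0175) and a 4.81-fold difference. Leaving out SmoM2 replicate 1 or 2 gave 7.22-fold and 3.21-fold, the latter with adjusted p = 0.0694, and without Sox9cKO replicate 2 the adjusted p was 0.0501. With a robust, intensity-dependent prior it was 0.0665. All 4 Sema3e probe sets were lower in both Sox9cKO arrays than in either SmoM2 array, with changes from -2.27 to -1.40, and 2 of the 4 passed when every probe set was tested.

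Sema3c, a neuropilin ligand, measured 8.86 and 9.12 in the SmoM2 pair and 7.34 and 8.06 in the Sox9cKO pair. It changed by -1.29 (SE 0.24, adjusted p = 0.0237), a 2.45-fold difference, and its second probe set changed by -1.04 and also passed. The call was lost without SmoM2 replicate 1 (adjusted p = 0.0921) or 2 (adjusted p = 0.158). Sema3c and Sema3e lie on chromosome 5 with 15 protein-coding genes between them in RefSeq, and Sema3d and Sema3a precede Sema3e on that chromosome. Sema3d changed by -0.24 (adjusted p = 0.806) and Sema3a by -0.03 (adjusted p = 0.966), both from signals below the lower quartile on at least 1 array.

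Of the class 3 semaphorins that did not pass, Sema3f changed by -0.42 (95% interval -0.79 to -0.05, adjusted p = 0.212) and Sema3b by -0.38 (-0.70 to -0.06, adjusted p = 0.187). Sema3f is a preferred ligand of neuropilin-2. A dimmer probe set of Sema3b, singled out after its values were seen, measured 5.78 and 6.64 in SmoM2 against 5.29 and 4.67 in Sox9cKO, a change of -1.23 (adjusted p = 0.0951 among probe sets).

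Among the plexins and neuropilins, the receptors of semaphorins, 2 genes passed and both rose. Of 11 plexins and neuropilins, Nrp2 and Plxna2 rose and none fell by limma (0 also at an unadjusted p under 0.05). That is 18.2%, beside 6.19% of all genes. Nrp2, the neuropilin-2 co-receptor, measured 7.84 and 8.10 in the SmoM2 pair and 9.85 and 9.86 in the Sox9cKO pair. This was a log2 change of 1.89 (SE 0.15, adjusted p = 0.000769), or 3.70-fold. All 4 probe sets of Nrp2 passed, with changes from 1.33 to 1.89.

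Plxna2, a plexin that carries the signal of neuropilin-bound semaphorins into the cell, measured 8.47 and 8.30 in the SmoM2 pair and 9.78 and 9.74 in the Sox9cKO pair. It rose 2.60-fold (log2 1.38, SE 0.14, adjusted p = 0.00193). Its 4 probe sets all passed, with changes between 1.21 and 1.56, so both receptors gave the same direction at every probe set.

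The remaining plexins and Nrp1 had changes between -0.32 (Plxnb2) and 0.25 (Plxna3). Plxna1 changed by -0.04 (95% interval -0.36 to 0.27). A dimmer Plxna1 probe set changed by 0.40 (0.05 to 0.75, adjusted p = 0.246 among probe sets). Plxnd1, the receptor of Sema3e, measured 4.91 and 4.96 in SmoM2 and 4.77 and 4.94 in Sox9cKO, a change of -0.09 (-0.41 to 0.24). Nrp1 was dim on all arrays, at 4.37 to 4.93, with a change of 0.05 (-0.44 to 0.54). A dimmer Nrp1 probe set changed by -0.58 (-1.05 to -0.11, adjusted p = 0.211 among probe sets). The Nrp1 and Plxnd1 signals lay near the lower quartile of all genes, where an interval says little about the transcript, and a p that misses the threshold does not show that levels were equal.

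Of 13 membrane-bound semaphorins (classes 4 to 7), Sema4g rose and none fell by limma (1, Sema5a, was lower at an unadjusted p under 0.05). That is 7.69%, near the 6.19% of all genes. Sema4g, a transmembrane class 4 semaphorin, measured 6.22 and 6.21 in the SmoM2 pair and 6.98 and 7.17 in the Sox9cKO pair, a change of 0.86 (SE 0.14, adjusted p = 0.0137). Its adjusted p was 0.0797 or 0.0885 with SmoM2 replicate 1 or 2 left out and 0.0622 without Sox9cKO replicate 2. The other 12 ranged from -0.50 for Sema5a (adjusted p = 0.121) to 0.41 for Sema4c (adjusted p = 0.186). The 95% intervals of both, -0.85 to -0.15 for Sema5a and 0.07 to 0.76 for Sema4c, lay to one side of 0.

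Netrins moved apart. Ntn1, the secreted netrin-1, had the largest change of all members, with 5.61 and 5.84 in the SmoM2 pair and 9.12 and 8.76 in the Sox9cKO pair. The means were 5.72 ± 0.17 and 8.94 ± 0.26 (SD, n = 2 each), a log2 change of 3.22 (SE 0.17, adjusted p = 0.000281) and a 9.29-fold difference that ranked 16 among all genes by p. The second Ntn1 probe set was below the lower quartile of all genes and changed by 0.19 (adjusted p = 0.681 among probe sets). With the mean of both the change was 1.70 (adjusted p = 0.00189).

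Ntn4, a netrin of basement membranes that binds laminin, measured 7.68 and 7.78 in the SmoM2 pair and 6.94 and 7.11 in the Sox9cKO pair. It fell by 0.70 on the log2 scale (SE 0.14, adjusted p = 0.0301). The call was lost when SmoM2 replicate 1 (adjusted p = 0.111), SmoM2 replicate 2 (0.160), Sox9cKO replicate 1 (0.131) or Sox9cKO replicate 2 (0.0587) was left out, and when its 2 probe sets were averaged (adjusted p = 0.0795).

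The netrin receptors among the members did not pass. Unc5b changed by 0.12 (95% interval -0.19 to 0.44), Unc5c by 0.33 (-0.11 to 0.77) and Dcc by 0.35 (-0.04 to 0.74). Of the other netrins, Ntn3 changed by 0.42 (adjusted p = 0.176) and Ntn5 by -0.03. Neogenin (Neo1), a further netrin receptor that is no member, is described with the signalling partners below.

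Of 8 ephrins, the ligands, 1 rose and 2 fell (37.5%), and of 13 Eph receptors 1 rose (7.69%), beside 6.19% of all genes. The share of the Eph receptors is near that of all genes, and the difference between the 2 families was not tested. Efna5, a glycolipid-anchored ephrin-A, measured 8.78 and 8.33 in the SmoM2 pair and 10.04 and 9.85 in the Sox9cKO pair. It rose 2.62-fold (log2 1.39, SE 0.18, adjusted p = 0.00559). The second probe set was dimmer, at 4.38 to 5.09, and changed by 0.42 (adjusted p = 0.365 among probe sets), and with the mean of both the change was 0.90 (adjusted p = 0.0238).

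Efna1, a ligand of EphA2 in epithelia, was lower in the Sox9cKO pair. It measured 9.94 and 10.06 in the SmoM2 pair and 9.01 and 9.24 in the Sox9cKO pair, a change of -0.88 (SE 0.15, adjusted p = 0.0158). Efna3, another ephrin-A, measured 7.95 and 7.71 against 6.88 and 7.13, a change of -0.83 (SE 0.16, adjusted p = 0.0256). Its second probe set passed as well, with a larger change of -1.29, while that of Efna1 changed by -0.64 (adjusted p = 0.198 among probe sets).

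Both calls were lost in 3 of the 4 fits that left out an array. For Efna1 the adjusted p was 0.0737 with SmoM2 replicate 1 left out, 0.106 with SmoM2 replicate 2 and 0.0683 with Sox9cKO replicate 1. For Efna3 these values were 0.148, 0.0761 and 0.105. Averaging its probe sets gave Efna1 an adjusted p of 0.0529. Efna1, Efna3 and Efna4 follow each other on chromosome 3 with 0 other protein-coding genes between them in RefSeq. Efna4 was also lower in both Sox9cKO arrays (8.37 and 8.28 against 7.86 and 8.05), with a change of -0.37 that did not pass (95% interval -0.70 to -0.04, adjusted p = 0.223).

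Of the transmembrane ephrin-B genes, Efnb2 came nearest to the threshold. It measured 10.85 and 10.89 in the SmoM2 pair and 10.37 and 10.24 in the Sox9cKO pair, a change of -0.56 (SE 0.13, adjusted p = 0.0586). A second Efnb2 probe set passed when every probe set was tested, at 10.19 and 10.31 against 9.61 and 9.47 (log2 -0.70, adjusted p = 0.0459). The gene value passed with a robust, intensity-dependent prior (adjusted p = 0.0412) and with dim genes left out (adjusted p = 0.0486). The dimmest of its 4 probe sets changed by 0.05. Efnb1 changed by -0.03 (95% interval -0.53 to 0.48).

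Among the Eph receptors, Epha1 rose and none fell by limma (0 also at an unadjusted p under 0.05). Epha1 measured 8.69 and 8.35 in the SmoM2 pair and 9.33 and 9.16 in the Sox9cKO pair, with a change of 0.73 (SE 0.16) and an adjusted p of 0.0487, just under the threshold. With an array left out it was 0.0687 (SmoM2 replicate 1), 0.221 (SmoM2 replicate 2), 0.176 (Sox9cKO replicate 1) or 0.0898 (Sox9cKO replicate 2). It was 0.0568 after quantile normalization and 0.0720 when every probe set was tested. When its probe sets were averaged, it changed by 0.42 (adjusted p = 0.0996).

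The other 12 Eph receptors had changes between -0.37 (Ephb1) and 0.23 (Epha5). Epha2, the main receptor of Efna1, measured 7.30 and 8.04 in SmoM2 and 7.59 and 7.43 in Sox9cKO, with overlapping arrays and a change of -0.16 (95% interval -0.72 to 0.40). Epha4, which binds ephrins of both classes, was close on all arrays, at 9.11 and 9.11 against 9.20 and 9.17 (0.07, interval -0.24 to 0.38). For Ephb1 the Sox9cKO replicates were apart, with replicate 2 at 5.84 and the other 3 arrays at 6.73 to 6.96. Without Sox9cKO replicate 1 its change was -0.93 (adjusted p = 0.0311).

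Robo1 was the member of the Slit and Robo group that passed (1 of 7, 14.3%, beside 6.19% of all genes). This receptor of Slit ligands measured 8.80 and 8.26 in the SmoM2 pair and 9.86 and 9.49 in the Sox9cKO pair. It rose 2.21-fold (log2 1.14, SE 0.22, adjusted p = 0.0250). The adjusted p was 0.127 without SmoM2 replicate 2 and 0.0877 without Sox9cKO replicate 1, and the average of its 3 probe sets changed by 0.61 (adjusted p = 0.131). The other probe sets were dim and changed by 0.70 and -0.02.

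The Slit ligands were not called. Slit3 measured 8.11 and 7.76 in SmoM2 and 8.60 and 8.25 in Sox9cKO, a change of 0.49 (95% interval 0.06 to 0.92, adjusted p = 0.217). Slit1 changed by 0.11 and Slit2 by 0.15. A dimmer Slit1 probe set measured 4.93 and 5.10 in SmoM2 against 5.49 and 5.77 in Sox9cKO, a change of 0.61 (adjusted p = 0.102 among probe sets). Robo2, a related receptor, changed by -0.49 from a dim signal (5.33 and 5.17 against 4.60 and 4.91, adjusted p = 0.153). Robo4, an endothelial Robo receptor, lay between 4.24 and 4.62 on all arrays.

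**Figure D3:**
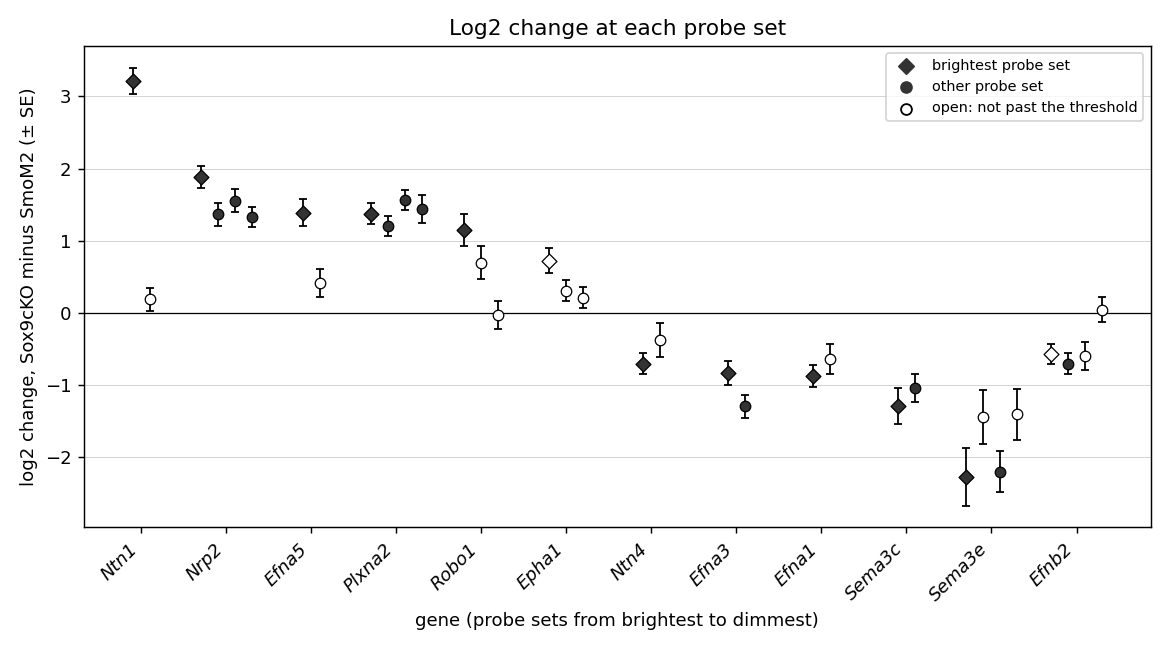
The log2 change with its standard error (vertical axis) at each probe set of the 11 called guidance genes with more than 1 probe set and of Efnb2, ordered from the brightest to the dimmest probe set. Filled symbols passed when every probe set was tested and diamonds are the probe sets that stand for the gene; Nrp2 and Plxna2 are filled at all 4, while the second probe set of Ntn1 sits at 0.19.

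When every probe set was tested on its own, with adjustment over 34945, 22 of the 150 probe sets of the members passed (13 higher and 9 lower, 14.7%), beside 4.21% of all probe sets. These came from 13 genes. Probe sets of 1 gene measure the same transcripts and are not replicates.

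Genes that work with these ligands and receptors also moved in both directions. A list of 66 signalling partners (co-receptors, adaptors and intracellular regulators), of which 65 were measured, had 5 members higher and 4 lower, 13.8%, beside 6.19% of all genes. Its median change was -0.01. The count was lower with SmoM2 replicate 1, SmoM2 replicate 2 or Sox9cKO replicate 2 left out and higher with Sox9cKO replicate 1 left out. The share of all genes that passed was lower in each of these fits.

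Nrcam, an immunoglobulin-type adhesion molecule and semaphorin co-receptor, had the largest change of the partners. It measured 7.60 and 8.78 in the SmoM2 pair and 10.20 and 10.97 in the Sox9cKO pair, with the genotypes apart and the replicates spread. It rose 5.27-fold (log2 2.40, SE 0.39, adjusted p = 0.0142), against 3.51-fold without SmoM2 replicate 1 (adjusted p = 0.0536) and 7.91-fold without SmoM2 replicate 2. With a robust, intensity-dependent prior the adjusted p was 0.105, and the average of its probe sets changed by 1.42 (adjusted p = 0.0474). Its relative Chl1 went the other way, from 10.37 and 10.52 to 9.66 and 9.56 (log2 -0.84, SE 0.14, adjusted p = 0.0145). Chl1 lost its call with SmoM2 replicate 1 (adjusted p = 0.0571), SmoM2 replicate 2 (0.0988) or Sox9cKO replicate 2 (0.0625) left out, and when its probe sets were averaged (0.0550).

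Neo1, the netrin receptor neogenin, measured 8.80 and 9.23 in the SmoM2 pair and 9.90 and 10.50 in the Sox9cKO pair. It rose 2.27-fold (log2 1.18, SE 0.23, adjusted p = 0.0295), the same direction as its ligand Ntn1. The call was lost with SmoM2 replicate 1 (adjusted p = 0.174), SmoM2 replicate 2 (0.0723) or Sox9cKO replicate 2 (0.0861) left out, and when its probe sets were averaged (0.0723).

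Among intracellular partners, Srgap3, a GTPase-activating protein that binds Robo receptors, measured 5.40 and 4.99 in SmoM2 and 6.69 and 6.77 in Sox9cKO (log2 1.53, SE 0.17, adjusted p = 0.00282). Ngef, the exchange factor ephexin-1 that acts below EphA receptors, measured 7.20 and 7.54 against 6.03 and 5.98 (log2 -1.36, SE 0.16, adjusted p = 0.00340). Both kept their call under every alternative in which they were tested, with Srgap3 at 0.90 when the mean of its probe sets was used.

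Lrrc4c, a ligand of netrin-G1, measured 5.17 and 5.41 in SmoM2 and 3.70 and 3.80 in Sox9cKO, where it was near the level of absent transcripts. It changed by -1.54 (adjusted p = 0.00158), or by -0.93 when its probe sets were averaged. The heparan sulfate proteoglycan Sdc3 rose by 0.94 (adjusted p = 0.00766) and the Rac exchange factor Tiam2 by 0.75 (adjusted p = 0.0190). With the mean of their probe sets these changes were 0.45 (adjusted p = 0.0756) and 0.20 (adjusted p = 0.459).

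Sdc3 lost its call without SmoM2 replicate 1 (adjusted p = 0.0595), and Tiam2 lost it without any of the 4 arrays (adjusted p = 0.0618 to 0.114). The adaptor Nck2 fell from 9.10 and 9.25 to 8.52 and 7.84, with an adjusted p of 0.0488. That call was lost without SmoM2 replicate 1 (0.167), SmoM2 replicate 2 (0.231) or Sox9cKO replicate 2 (0.119), after quantile normalization (0.0520) or median centring (0.0558), and when its probe sets were averaged (0.0795) or each tested (0.0709).

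**Figure D4:**
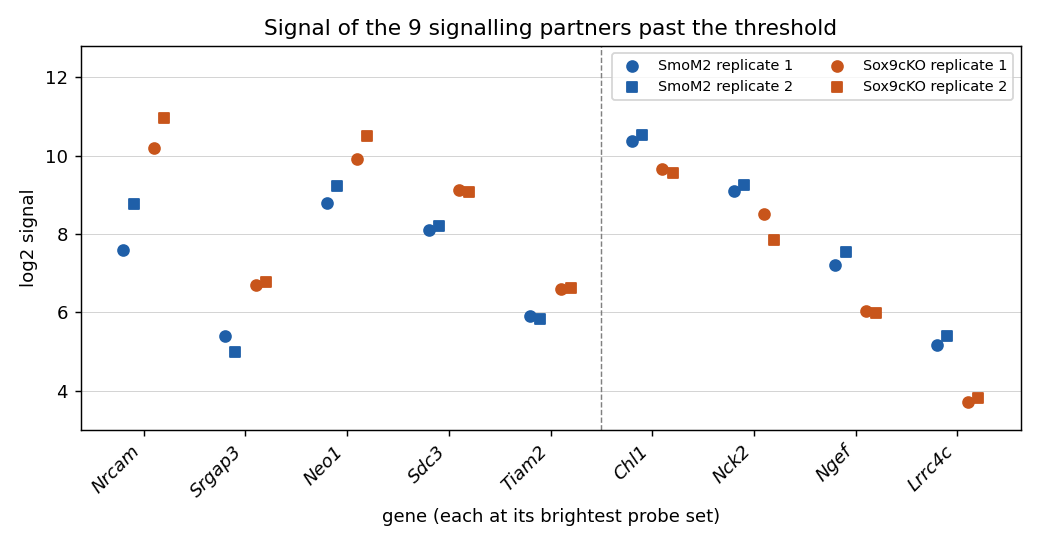
The log2 signal (vertical axis) of the 9 signalling partners that passed the test, with 1 point per array: SmoM2 in blue, Sox9cKO in orange, circles for replicate 1 and squares for replicate 2. Genes left of the dashed line were higher in both Sox9cKO arrays, as Nrcam (10.20 and 10.97 against 7.60 and 8.78), and those on the right were lower.

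Markers of basal, differentiated and follicular cells moved beside these genes. In bulk RNA, fewer cells of a type and less RNA per cell cannot be told apart. Beside the marker counts below, 2.66% of all genes were called higher and 3.53% lower. Of 10 markers of interfollicular basal cells, the sorted type, 2 fell and none rose by limma (6 were lower and 0 higher at an unadjusted p under 0.05). The 2 were the laminin chains Lama3 (-1.12, adjusted p = 0.0178) and Lamb3 (-1.25, adjusted p = 0.00949). The median change of the list was -0.53. Of the 10, 8 had a negative change, with Krt5 at -0.005, and Krt15 (0.04) and Trp63 (0.12) had a positive one. The summed level of the list was 15.21 to 15.50 in the SmoM2 arrays and 15.06 to 15.16 in the Sox9cKO arrays on the log2 scale. These do not overlap, but neither did the arrays of the genotypes for 8706 of all 18193 genes. Of 8 measured inner root sheath and hair cortex markers, 6 rose, and their summed level was 9.81 to 9.95 in the SmoM2 arrays and 11.27 to 11.32 in the Sox9cKO arrays on the log2 scale. The brightest of the 8, and so the largest part of the sum, was Gata3 (9.47 and 9.30 against 10.43 and 10.57). Krt35 changed by 0.08 and was not called. Of 7 suprabasal markers 3 rose (14.22 to 14.36 against 14.30 to 14.84), and of 5 sebocyte markers 2 fell (12.48 to 13.02 against 12.34 to 12.55). Of 7 bulge markers 3 fell and 1 rose, with overlapping summed levels (12.78 to 12.88 against 12.67 to 13.08). The part of these cells in the guidance gene changes was not tested.

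Vascular and dermal cells express several guidance genes as well. Of 13 endothelial markers none passed by limma (1 was higher at an unadjusted p under 0.05), and their summed level was 8.73 to 8.90 in SmoM2 and 8.93 to 9.02 in Sox9cKO. Of the 13, 7 had a mean below the lower quartile of all genes, among them Cdh5 (3.95 to 4.22). The brightest was Egfl7, at 6.70 and 7.08 in SmoM2 and 7.45 and 7.50 in Sox9cKO, a change of 0.59 (adjusted p = 0.0983).

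Of 8 fibroblast markers Thy1 was called, at 5.26 and 4.99 in SmoM2 and 7.01 and 7.22 in Sox9cKO. Without it their summed level was 7.16 to 7.36 in SmoM2 and 7.46 to 7.72 in Sox9cKO. Of the 8, 6 had a mean below the lower quartile, Col1a1 (4.08 to 4.51) and Col3a1 (3.71 to 4.21) among them. Col1a2 was brighter, at 5.96 and 5.16 in SmoM2 and 5.96 and 6.59 in Sox9cKO, a change of 0.72 (adjusted p = 0.273). Of 5 T cell markers Thy1 was the one called, and the other 4 lay between 3.55 (Cd3g) and 5.89 (Cd3e). None of 7 Langerhans and myeloid markers passed by limma (2 were higher at an unadjusted p under 0.05). Their summed level was 7.91 to 8.13 in SmoM2 and 8.27 to 8.29 in Sox9cKO. None of 6 melanocyte markers passed (1 was higher at an unadjusted p under 0.05), with summed levels of 8.96 to 9.04 in SmoM2 and 9.15 to 9.60 in Sox9cKO. The part of vascular, dermal, pigment and immune cells in the guidance gene changes was not tested.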

How the data were processed

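The authors deposited 1 log2 signal for each probe set on each Affymetrix 3' array, and these were used unchanged. The log2 scale follows from their range; their normalization, not given in the sources used here, is unknown. The submitters' processing notes name R 2.14.0 with no role. Array medians were 5.45 to 5.48. Arrays give no read depth.

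Symbols came from the platform annotation, updated through the entrez ID. The 9160 probe sets not listed, 932 with several symbols and 64 controls were left out. For each gene the probe set with the highest mean stood. Sox9cKO was compared with SmoM2 in R 4.3.3 with limma 3.58.1 (lmFit, eBayes, two-sided, 7.17 degrees of freedom with the prior), adjusted over 18193 genes at a threshold of 0.05. The procedure was run on data simulated from its own fitted variance model, which cannot show how it does where that model fails.

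Members and lists were chosen with earlier results of these data known. Named are all members and partners that passed, members called at another probe set, known ligands or receptors of those, and extremes of each group; which of the last to name was settled after the values were seen. Alternatives covered the probe sets of a gene, the variance prior, a filter on dim genes, normalization, the replicate number as a block and leaving out each array.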

Additional observations from a re-analysis of the deposited data

How the results depend on the processing

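The directions of the 13 called members and of the 9 called partners held under every alternative in which they were tested, while the number of calls did not. For the members most of this was fixed in advance. Their arrays did not overlap, so leaving out 1 array could not turn a sign. The variance prior, the replicate block and the filter on dim genes leave the log2 change as it is. Leaving out 1 array gave 534 to 900 called genes against 1126 (199 to 404 higher against 484, 335 to 502 lower against 642), 5 to 6 members higher against 8, 0 to 3 lower against 5 and 3 to 10 partners against 9. A fit with fewer arrays has fewer degrees of freedom, and the array left alone in its group is taken to vary as the other group does. When the probe sets of each gene were averaged, 3 members were lower. The replicate numbers are shared by the genotypes, but no label says that they mark a shared litter or day, and deviations of same-numbered arrays correlated at 0.092 over genes. A block by replicate number also joins arrays that differ in the Y-linked genes. With the replicate block 1919 genes were called (879 higher and 1040 lower), with 8 members higher and 6 lower and 15 partners; these extra calls come with 1 residual degree of freedom and the cause was not tested. Of the other 53 members apart from Efnb2, 1 (Ephb1) passed under any alternative and 24 changed sign under at least 1, so no direction is given for small changes. With dim genes left out, 34 members were tested and 12 called, beside 8.81% of all genes. The signals of Sema3g in SmoM2, of Lrrc4c in Sox9cKO and of Sema3e in Sox9cKO replicate 2 lay near or below the lower quartile of all genes, which limits the precision of their folds.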
